A study of Homo sapiens with 2 samples.

Results

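Cytosolic ribosomal proteins are the proteins that, with ribosomal RNA, build the large and the small subunit of the ribosomes in the cytosol. Their genes were chosen by symbol, as RPL or RPS followed by digits and at most 1 letter A or X, together with RPLP1 and RPLP2 of the stalk. Symbols ending in L, which mark paralogs, were left out. By this rule, 114 probes of 68 genes were found among 28098 probes of 18852 named genes. The large subunit was represented by 43 genes with 71 probes and the small subunit by 25 genes with 43 probes. Other ribosomal protein genes were not analysed here.

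The samples were SW48 cells, an established human colorectal cancer cell line, grown in Iscove's medium with serum. The treated culture received AKBA (acetyl-11-keto-β-boswellic acid), one of the triterpenoids that Boswellia resin holds, at 20 µM for 6 days. The control is given as a vehicle control with 0.1% DMSO in the treatment protocol and as non-treated in its source name, so an effect of the vehicle cannot be told apart from one of AKBA. Total RNA of each group was measured on 1 Illumina bead array of 48803 probes. With 1 array per group no gene was tested, no difference has a replicate check, and "higher" and "lower" describe these 2 arrays only. RNA from whole cultures does not tell fewer cells from less RNA per cell.

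The control array had a median signal of 80.9 and 12389 probes detected at a detection p under 0.01, and the AKBA array a median signal of 78.3 and 11329 probes detected. Most detected genes had a lower deposited signal on the AKBA array, with a median log2 difference of -0.31 over 8639 genes. After normalization by quantiles the median difference of these genes was -0.02. Of 8 intestinal epithelial genes looked at to check the line, CDX2, EPCAM, KRT8 and KRT18 were detected, and CDX1, KRT20, LGALS4 and VIL1 were detected on neither array.

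A ribosome needs its proteins in fixed proportion, and their mRNAs are among the most abundant in dividing cells. Most of these mRNAs begin with a C followed by a run of C and T, the terminal oligopyrimidine tract, through which the growth-regulating kinase complex mTORC1 and the RNA-binding protein LARP1 set how much of them is translated. The arrays measure the amount of mRNA and not its translation. Some ribosomal proteins also act outside the ribosome, among them RPL5 and RPL11, which bind the p53 regulator MDM2.

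The tract could be read in the reference sequence around the gene starts. RefSeq windows of 30 bases (15 before and 15 from the annotated start, build GRCh38.p14) were available for 58 of the 68 genes. They are shown for genes whose values are described below, 5′ to 3′ on the gene's own strand, with the longest unbroken run of C and T in capitals. The genes RPL31, RPS7 and RPL7A were among the highest on the AKBA array, RPL29, RPS21, RPS24 and RPS6 among the lowest, RPLP1 and RPLP2 form the stalk, and RPL11 binds MDM2. RPL3 and RPL27 are shown for their short runs.
RPL31 (chr2:101002274-101002303, plus strand): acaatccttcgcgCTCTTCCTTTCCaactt
RPS7 (chr2:3575245-3575274, plus strand): gtttccgCCCTCCTCCTCgcgctgtttccg
RPL7A (chr9:133348203-133348232, plus strand): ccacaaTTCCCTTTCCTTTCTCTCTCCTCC
RPL29 (chr3:51995881-51995910, minus strand): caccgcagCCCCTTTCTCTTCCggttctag
RPS21 (chr20:62387088-62387117, plus strand): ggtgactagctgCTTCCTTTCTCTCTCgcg
RPS24 (chr10:78033848-78033877, plus strand): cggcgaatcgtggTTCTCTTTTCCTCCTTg
RPS6 (chr9:19380222-19380251, minus strand): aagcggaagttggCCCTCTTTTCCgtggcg
RPLP1 (chr15:69452803-69452832, plus strand): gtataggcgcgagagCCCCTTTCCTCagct
RPLP2 (chr11:809952-809981, plus strand): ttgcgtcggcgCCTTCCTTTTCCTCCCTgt
RPL11 (chr1:23691791-23691820, plus strand): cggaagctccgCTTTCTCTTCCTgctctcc
RPL3 (chr22:39319609-39319638, minus strand): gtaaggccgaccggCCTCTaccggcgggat
RPL27 (chr17:42998404-42998433, plus strand): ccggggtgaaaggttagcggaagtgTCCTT

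A run of at least 8 pyrimidines was found in 48 of 58 ribosomal protein windows (82.8%), with a median longest run of 11 bases. It was found in 16.5% of the windows of all 27305 genes in the RefSeq table and in 17.9% of those of 7125 detected genes outside the rule, both with a median longest run of 5 bases. Large and small subunit genes had it similarly often, in 30 of 36 windows (83.3%) and 18 of 22 windows (81.8%). A run is a match of letters in an annotated window and not a mapped start of the mRNA. The median normalized difference was 0.05 for the 47 detected genes with such a run and 0.06 for the 10 without.

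Nearly all of the ribosomal protein genes were detected. Of the 68 genes, 67 were detected on both arrays, 42 of the large and 25 of the small subunit. The exception was RPL10, a large subunit protein at the site where the subunits join, whose 2 probes gave 83.9 and 77.5 in the control (detection p 0.153 and 0.281) and 73.5 and 70.6 with AKBA (0.328 and 0.441). RPL10 was thus not above background on either array. Of the 114 probes, 107 were detected on both arrays, 2 on 1 array and 5 on neither.

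Each of the 67 genes was represented by its probe with the highest normalized signal. Their signals had a median of 19813 in the control and 18951 with AKBA, against 578 and 460 over all detected genes. The brightest probe of all reached 33319 in the control and 32153 with AKBA. On the control array 33 ribosomal protein genes had a signal over 20000 (20 of the large and 13 of the small subunit), out of 60 genes in all, and they took 29 of the 50 brightest places there and 33 on the AKBA array. All their probes together held 7.17% of the summed signal in the control and 7.92% with AKBA. A probe's signal depends on its own sequence as well as on the RNA, so signals do not rank different genes by abundance.

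**Figure D1:**
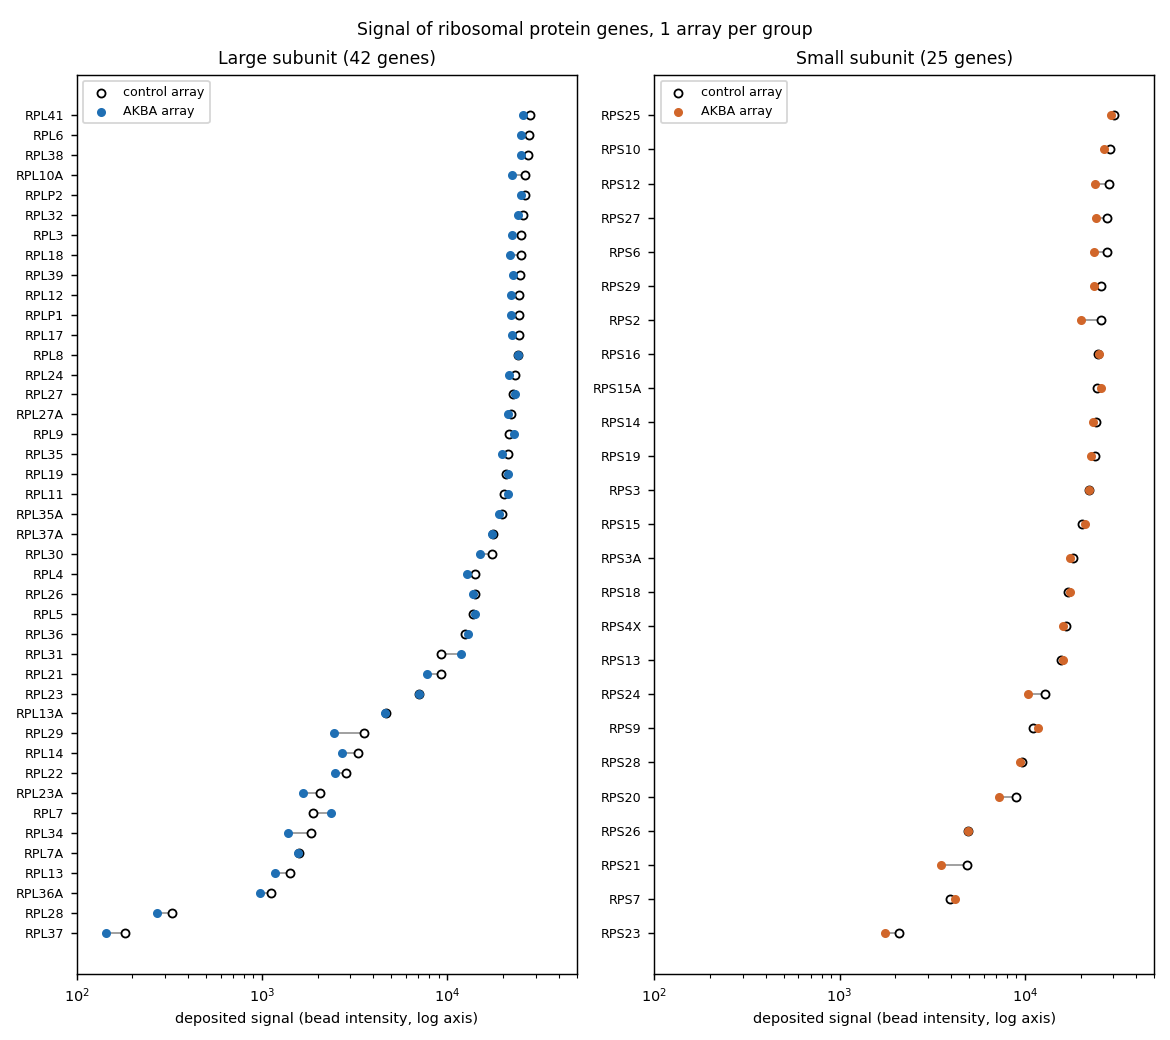
Deposited signal (bead intensity, log axis) of the 67 detected ribosomal protein genes, large subunit on the left and small subunit on the right, with an open circle for the control array and a filled circle for the AKBA array (1 array each). Most pairs lie close together above 10000, and RPL7 and RPL31 are displaced to the right on the AKBA array.

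RPS25, needed for initiation at viral internal ribosome entry sites, had the brightest probe among them, at 30254 in the control and 29313 with AKBA. RPS10 of the small subunit head gave 28810 and 26655, and RPL41, the shortest ribosomal protein, 28094 and 25604. RPS12, at the beak of the small subunit, gave 28494 and 24043, and RPL6 of the large subunit 27771 and 25089. At the other end, RPL37, at the outlet of the nascent chain, gave 183 and 145, and RPL28, a protein of the large subunit, 328 and 272. These were the only 2 under 1000 on the control array. The next were RPL36A with 1118 and 978, RPL13 with 1420 and 1179 and RPL7A with 1592 and 1574. RPL37 was close to the limit of detection, with a detection p of 0.00395 and 0.00922.

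The difference between the arrays was small for most of these genes. The median normalized log2 difference, AKBA minus control, was 0.05 over the 67 genes (range -0.26 to 0.65, SD 0.16), and under median scaling of the arrays in place of quantiles it was -0.07. Relative to the median of all detected genes it was 0.08, and 0.25 under median scaling, 0.13 under loess and 0.26 with the authors' processed values. Over all 8639 detected genes the median was -0.02 with an SD of 0.32. Of the ribosomal protein genes 52 of 67 lay above that median, and on the deposited signals before any scaling 62 of 67 did. On the deposited signals the median log2 difference was -0.10 for ribosomal protein genes and -0.31 for all detected genes.

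Genes were counted as higher at a normalized log2 difference of 0.32 or more, a level 25% up, and as lower at the same distance below 0. By this limit 4 ribosomal protein genes were higher on the AKBA array (5.97%) and 0 were lower, against 11.1% higher and 15.1% lower among all detected genes. All 67 were detected on both arrays, and among the 7930 genes detected on both it was 11.5% higher and 12.3% lower. The remaining 63 of 67 (94.0%) lay within the limit, against 73.8% of all detected genes. These shares are not matched for brightness. A mean signal over 20000 was held by 33 of the 67 genes. Other genes had an SD of 0.14 there and of 0.33 at or under 2000, where most of them lay. At 1.5-fold, 1 ribosomal protein gene was higher and 0 were lower, against 2.91% and 4.36% of all detected genes. At 2-fold it was 0 in both directions, against 0.405% and 0.347%. With this normalization and 1 probe per gene, the share of ribosomal protein genes past 0.32 was thus below that of all detected genes. At 1.5-fold and 2-fold the counts of 1 and 0 among 67 genes are too small for such a reading. Over single probes detected on both arrays and at the limit of 0.32, 12 of 107 were higher and 1 was lower, against 12.5% and 11.7% of 9854 such probes with a gene name.

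The order of the shares on the higher side turned with the processing. With the dimmest detected probe of each gene, 11 of 67 (16.4%) were higher, against 12.1% of all detected genes. Relative to the median of all detected genes, 6 (8.96%) were higher after quantile normalization, against 12.7% of all genes. Under median scaling it was 22 (32.8%) against 12.5%, and with the authors' values 24 (35.8%) against 13.5%, with 0 lower in each count relative to that median. Under loess it was 5 (7.46%) against 12.6%. Of all detected genes, 13.3% were lower than that median by the limit after quantile normalization and 13.3% under median scaling. It was 15.3% with the authors' values and 13.4% under loess. Relative to the median of all detected genes, ribosomal protein genes were thus higher by the limit more often than genes in general under median scaling and with the authors' values. They were so less often after quantile or loess normalization. On the lower side their share was below that of genes in general in all 4.

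**Figure D2:**
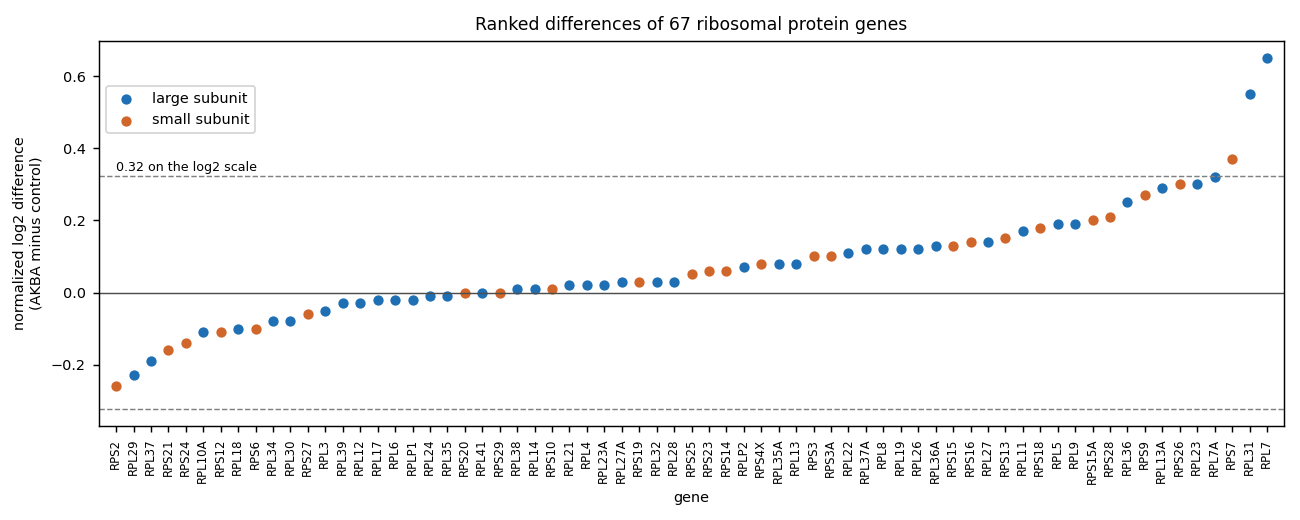
Normalized log2 difference (AKBA minus control) of each of the 67 ribosomal protein genes in rank order, 1 probe per gene and 1 array per group, with dashed lines at 0.32 above and below 0. RPL7 and RPL31 stand above a continuous series that runs from -0.26 (RPS2) to 0.37 (RPS7), with both subunits at both ends.

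The 4 genes past 0.32 were RPL7, RPL31, RPS7 and RPL7A. RPL7, an RNA-binding protein of the large subunit, gave 1891 in the control and 2351 with AKBA. Its normalized difference of 0.65 (1.57-fold) was the highest of the 67 genes. RPL31, which lines the outlet of the nascent chain, had a signal of 9313 and 11849 and a difference of 0.55 (1.47-fold). In both genes the deposited signal itself was higher on the AKBA array, whereas 48 of the 67 genes had a lower one there. Each of them was measured by 1 probe.

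RPS7, needed to process the RNA of the small subunit, had a signal of 3960 and 4177 and a difference of 0.37 (1.30-fold). Its other probe gave 3170 and 3264 and a difference of 0.36. RPL7A, an RNA-binding protein of the large subunit, had a signal of 1592 and 1574 and a difference of 0.32, just past the limit and measured by 1 probe. Under median scaling RPL7 and RPL31 kept 0.36 and 0.38, while RPS7 had 0.11 and RPL7A 0.02, within the limit. Relative to the median of all detected genes, all 4 were past the limit in each of the 6 scalings run, with lowest values of 0.65, 0.57, 0.39 and 0.33.

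Just inside the limit lay RPS26 and RPL23, both with 0.30. RPS26, which contacts the mRNA upstream of the start codon, had a signal of 4909 and 4914, and RPL23, at the interface of the subunits and able to bind MDM2, 7066 and 7074. RPL13A, which is also part of an interferon-induced complex that represses translation, had 4661 and 4606 and a difference of 0.29. RPS9, whose bacterial homologue starts assembly of the small subunit, had 11077 and 11794 and a difference of 0.27. On the deposited signals their log2 differences were only -0.02 to 0.09, where the median of all detected genes was -0.31. Under median scaling they had 0.02 to 0.12.

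At the low end, RPS2, which lies at the mRNA entry of the small subunit, gave 25815 in the control and 20180 with AKBA. Its normalized difference was -0.26 (control over AKBA 1.19-fold), and its place among all detected genes by signal went from 21 to 46. RPL29, known also as a heparin-binding protein, had 3554 and 2456 and a difference of -0.23. Its other probe gave 3473 and 2439, with -0.20. RPL37 had -0.19 at signals near the limit of detection. None of these passed the limit of 0.32.

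RPS21, a protein of the small subunit, had 4898 and 3542 and a difference of -0.16, and RPS24, needed to process the RNA of the small subunit, 12865 and 10443 and -0.14. RPS12 and RPL10A, the latter part of the stalk where spent transfer RNAs leave, both had -0.11, RPL10A with signals of 26287 and 22498. RPS6, the substrate of S6 kinase and a common readout of mTORC1 activity, had 27640 and 23703 and a difference of -0.10, while its other probe, with 16902 and 16752, gave 0.12. For RPS2, RPL29, RPL37, RPS21, RPS24, RPS12, RPL10A and RPS6 the deposited signal was lower on the AKBA array. RPL29, RPL37 and RPS21 lay below the median of all detected genes in each of the 6 scalings, whereas RPS2 lay between -0.23 and 0.01 relative to it and RPS24, RPS12, RPL10A and RPS6 lay above it under median scaling and with the authors' values (0.05 to 0.14).

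The large and the small subunit had close medians, and the genes of both overlapped from -0.23 to 0.37, with RPL31 and RPL7 of the large subunit above. The median normalized difference was 0.03 over the 42 large subunit genes (range -0.23 to 0.65, SD 0.17) and 0.06 over the 25 small subunit genes (range -0.26 to 0.37, SD 0.15). The gap between the medians, large minus small, was -0.03. Above the median of all detected genes lay 33 of 42 large and 19 of 25 small subunit genes. Past 0.32 lay 3 of 42 large subunit genes and 1 of 25 small subunit genes, all higher on the AKBA array. Among all detected genes 11.1% were higher and 15.1% lower by that limit. Counts of 3 and 1 are too small to compare the subunits. The gap ran from -0.07 to 0.01 over the alternatives of processing, turning sign only with the mean over a gene's probes, and both medians were below 0 under median scaling, at -0.09 and -0.02. Over single probes the medians were 0.04 for 64 large subunit probes and 0.10 for 43 small subunit probes.

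**Figure D3:**
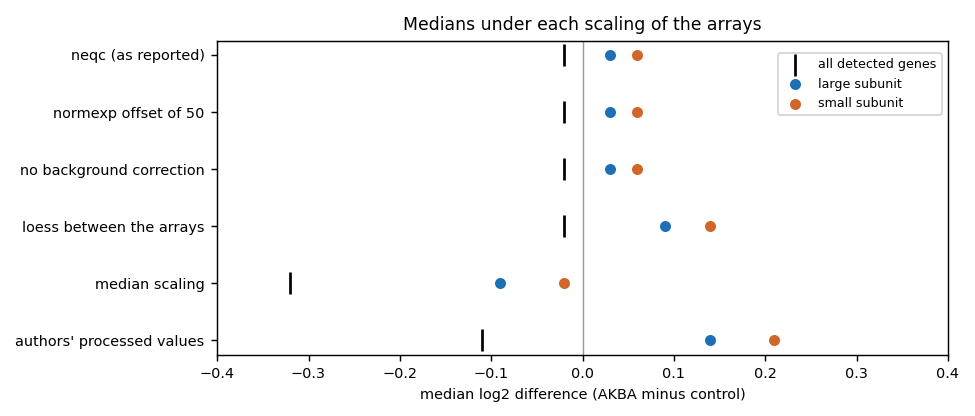
Median log2 difference (AKBA minus control) of the large subunit genes, the small subunit genes and all 8639 detected genes under 6 ways of scaling the same 2 arrays. Both subunits lie to the right of all detected genes in each row and the small subunit to the right of the large, while their position against 0 changes sign under median scaling.

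Within the ribosome, the proteins were described by their place. Of the stalk, which recruits elongation factors, RPLP1 had a signal of 24335 and 22135 (difference -0.02) and RPLP2 26254 and 25132 (0.07). RPL5 and RPL11, which bind MDM2 together with a small ribosomal RNA, were both slightly brighter on the AKBA array. RPL5 gave 13745 and 14128 (0.19) and RPL11 20313 and 21208 (0.17), and both differences stayed positive in each scaling (0.07 to 0.32). The other probe of RPL11, with 20958 and 18998, gave -0.04.

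The 10 proteins around the outlet of the nascent chain had a median of 0.02, from -0.19 (RPL37) to 0.55 (RPL31), with 1 past 0.32. The 11 measured proteins of the small subunit head had a median of 0.05 within a range of -0.11 to 0.21, with 0 past 0.32. Among them RPS3, at the mRNA entry and also a DNA repair protein, gave 22081 and 22202 and a difference of 0.10. The 17 measured genes known from Diamond-Blackfan anaemia, in which 1 inherited copy is lost and red cell formation fails, had a median of 0.12, with RPL31 and RPS7 past 0.32 (11.8%). Among all detected genes 11.1% were higher and 15.1% lower by that limit, so the share of higher anaemia genes was near that of genes in general. Counts in lists this short are descriptive only. Over all 67 genes the quartiles of single genes were -0.02 and 0.14. Under median scaling the medians of these subsets were -0.09 for the outlet, -0.01 for the head, -0.01 for the anaemia genes, -0.07 for the stalk and 0.08 for RPL5 and RPL11.

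The differences were also set out by the mean signal of the genes. Among the 33 ribosomal protein genes with a mean signal over 20000 the median difference was 0.01 with an SD of 0.10, and among the 22 other genes of that class it was -0.04 with an SD of 0.14. Quantile normalization gives both arrays the same set of values. Ribosomal protein genes made up most genes of this class, but only 40 of the 118 probes over 20000 on the control array. Whether the method draws their median towards 0 was not tested. On the deposited signals the medians of this class were -0.11 for ribosomal protein genes and -0.15 for other genes. Between 10000 and 20000 the 14 ribosomal protein genes had a median of 0.12 (SD 0.16) and 78 other genes -0.09 (SD 0.21). Between 2000 and 10000 the 12 ribosomal protein genes had 0.16 (SD 0.25) and 1123 other genes -0.02 (SD 0.26). At or under 2000 the 8 ribosomal protein genes had 0.04 (SD 0.15) and 7349 other genes -0.03 (SD 0.33). The SD of other genes fell from class to class with rising signal, whereas that of the ribosomal protein genes was largest between 2000 and 10000. In each class the ribosomal protein genes had the higher median and the smaller SD.

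**Figure D4:**
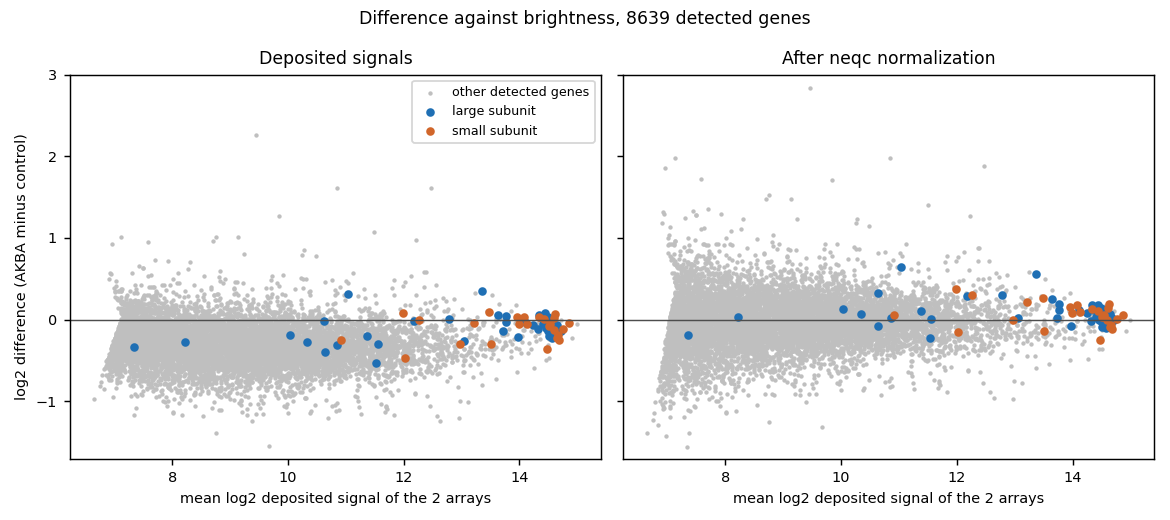
Log2 difference (AKBA minus control) against the mean log2 deposited signal for 8639 detected genes, on the deposited signals at left and after neqc normalization at right, with large subunit genes in blue, small subunit genes in orange and all others in grey. Ribosomal protein genes gather at the bright end, where all genes scatter less, and on the deposited signals 62 of 67 lie above the median of all detected genes.

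The probes of the same gene gave a check within the arrays. Detection on both arrays held for at least 2 probes in 29 genes, and the differences of the probes of a gene were a median of 0.20 apart and at most 0.76. Their pooled SD within genes was 0.22 over 69 probes. The SD over all 107 ribosomal protein probes detected on both arrays was 0.21. It was 0.16 among the 67 genes, each taken at its brightest probe. All probes had the same sign in 14 of the 29 genes, and no gene had probes past 0.32 in opposite directions. The gap between probes of 1 gene was thus of the size of most differences given above, and 35 of the 68 genes had 1 probe only.

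The 5 genes named next were chosen after their values were seen, as those with a probe past 0.32 and another of opposite sign. In RPLP1, 2 probes with control signals of 24335 and 15793 gave -0.02 and -0.06, whereas a probe with 3119 in the control and 4039 with AKBA gave 0.68. In RPS27, a zinc-finger protein of the small subunit, 2 probes at 27739 and 26047 gave -0.06 and -0.08, and the least bright of its 3 probes, with 7119 and 8020, gave 0.47. In RPL17, a protein at the outlet of the nascent chain, the brightest of 3 probes, at 24319, gave -0.02, and the dimmest, with 3242 and 3536, gave 0.44.

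In these 3 genes the bright probes were dimmer on the AKBA array and the less bright probe of the same gene was brighter there. RPS29, also of the small subunit, showed the same arrangement in its outermost probes, with 25864 and 23714 (0.00) against 2673 and 3455 (0.70). RPS26 went the other way, with 0.30 for the probe at 4909 and -0.46 for a probe with 246 and 166. RPL9, of the large subunit, had 3 probes of positive difference, with 0.19 at a control signal of 21666, 0.65 at 3926 and 0.24 at 1050. RPL36, also of the large subunit, had 0.25 at 12478 and 0.74 at 279.

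Over the 18 ribosomal protein genes whose brightest probe was over 20000, ordered by the mean signal of the arrays, the dimmest probe had the higher difference in 14, and the median of dimmest minus brightest was 0.09. Over the 11 whose brightest probe was at or under 20000 it did in 6, with a median of 0.03. Among other genes the dimmest probe had the higher difference in 9 of 12 genes with a brightest probe over 20000 (median 0.09) and in 917 of 1636 of the rest (median 0.05). Of the 12 ribosomal protein probes past 0.32 on the higher side, 8 had a mean signal between 2000 and 10000, where 23 of the 107 probes lay. Of the others, 3 had one up to 2000 (20 probes), 1 one between 10000 and 20000 (24 probes) and 0 one above 20000 (40 probes). The part of brightness in these differences was not tested.

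**Figure D5:**
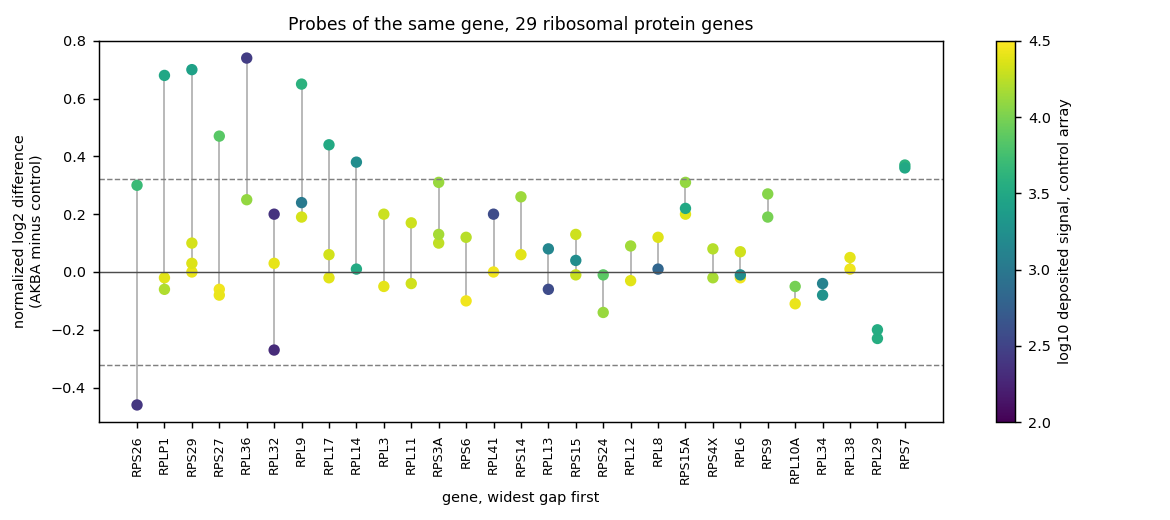
Normalized log2 difference (AKBA minus control) of the probes detected on both arrays in the 29 ribosomal protein genes that had more than 1 of them, joined by gene, coloured by the log10 of the control signal, with dashed lines at 0.32 above and below 0. In RPLP1, RPS29, RPS27, RPL36 and RPL17 the highest point is a probe of lower signal, and the 2 probes of RPS7 nearly coincide.

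Processed copies of ribosomal protein genes are common in the human genome, and probes named for such copies also gave signal. Of 20 probes named for 14 ribosomal protein pseudogenes, 8 were detected, and 4 gave over 5000 on both arrays. Probes named RPL13AP20, RPL13AP3 and RPL13AP6 gave 23314, 20764 and 6618 in the control and 21387, 19690 and 7144 with AKBA, and a probe named RPS26P11 gave 14204 and 12506. The probes named for RPL13A and RPS26 themselves gave 4661 and 4909 on the control array. Probe sequences were not used here, and signal of a gene and of a near-identical copy cannot be told apart. The values of RPL13A, RPS26, RPL13 and RPL23A in particular are therefore uncertain. The differences were -0.02, 0.02, 0.40 and -0.04 for the 4 probes over 5000, against 0.29 for RPL13A and 0.30 for RPS26. At lower signals, a probe named RPL13P5 gave 768 and 1050 (0.83), against 0.08 for RPL13. One named RPL23AP64 gave 1824 and 1885 (0.38) and those named RPL23AP7 had 0.14 and 0.02, against 0.02 for RPL23A.

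Among genes related to the ribosome but outside the rule, FAU, whose product is cleaved into a small subunit protein, had 15075 and 13931 and a difference of 0.04. Of 8 paralogs 4 were detected on both arrays, and 1 of them was lower by 0.32 or more, against 12.3% of all genes detected on both. RPL7L1, a paralog of RPL7 with a role in ribosome assembly, had 3362 in the control and 1688 with AKBA, a difference of -0.70 (control over AKBA 1.62-fold). Its difference was opposite in sign to that of RPL7. RPL10L, a paralog of RPL10 known from testis, passed detection through the control array only, at 184 against 131, and is not counted here. The other paralogs detected on both arrays were RPS27L with 8544 and 6640 (-0.09), RPL36AL with 18161 and 16576 (-0.02) and RPL26L1 with 1699 and 1364 (0.02).

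The factors that work with the ribosome were looked at in the same way. Of 8 elongation factors 6 were detected, with a median of 0.11 and 0 past 0.32, against 11.1% higher and 15.1% lower among all detected genes. EEF1A1, which brings transfer RNAs to the ribosome, gave 33319 and 31999 (0.00), EEF1G of the same complex 10791 and 11582 (0.29), and EEF2, which drives translocation, 14265 and 15362 (0.26). All 29 initiation factors were detected, with a median of 0.11, 4 higher and 0 lower by 0.32 or more (13.8% higher, against 11.1% of all detected genes) within a range of -0.31 to 0.56. The cap-binding protein EIF4E had 210 and 232 and a difference of 0.56, at a signal near the limit of detection, EIF1AX 900 and 967 (0.45) and EIF1 5676 and 6383 (0.44), both of which act in choosing the start codon, and EIF3C 253 and 253 (0.35). The scaffold EIF4G1 had the lowest difference, -0.31, with 4068 and 2664. Next came EIF2S1 with 596 and 414 (-0.24) and EIF3B with 15028 and 11679 (-0.21). Of the 29 differences 19 were above 0.

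Other mRNAs known to carry the oligopyrimidine tract, 15 detected of 20, had a median of 0.11 within -0.22 to 0.29 and 0 past 0.32. Among all detected genes 11.1% were higher and 15.1% lower by that limit. Mitochondrial ribosomal proteins, which serve the separate ribosomes of mitochondria, were detected on at least 1 array for all 76 genes named there. Their median was 0.04 for the large as for the small subunit. MRPS14, with 146 and 117, passed detection through the control array only and is counted among the 76. Of these 76 genes 7 were higher (9.21%) and 3 lower (3.95%) by 0.32 or more, from MRPS25 at -0.65 (461 and 259) to MRPL30 at 0.49 (602 and 660). Their signals had a median of 1582 in the control and 1342 with AKBA. Under median scaling, where the median of all detected genes was -0.32, the medians were -0.04 for elongation factors, -0.17 for initiation factors, -0.08 for the other tract-bearing mRNAs and -0.25 for mitochondrial ribosomal proteins, all below 0 and all above that of detected genes.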

How the data were processed

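Total RNA was extracted with a column kit and amplified into labelled cRNA, per the labels' protocols, and hybridised to Illumina arrays. The deposited signal intensity of each probe was not scaled between the arrays, as its values show, and the authors deposited a detection p-value beside it. The authors' processed values are deposited intensity values that were a linear function of these signals (slopes 1.00 and 1.20, intercepts -74.7 and -86.5 on the control and AKBA array), and served as an alternative. Not given in the sources used here is the software behind them.

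The signals were normalized with neqc of limma 3.58.1 in R 4.3.3 (background from the detection p-values, normexp offset 16, quantiles, log2). Genes were named from the platform's annotation table, and the Entrez identifiers of all 114 member probes were found in the RefSeq table. A gene was represented by its probe with the highest mean normalized signal and taken as detected where a detection p lay under 0.01 on at least 1 array. With 1 array per group, which limits the precision, no test was run, and genes were counted past 0.32 on the log2 scale, 1.5-fold and 2-fold. Probe ranges, medians and counts used Python 3.11.15, and the steps were tested on simulated data.

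Ribosomal protein genes, comparison lists and thresholds were chosen with earlier results of these data known. Named were the 8 highest and 8 lowest differences, the 5 brightest and 5 dimmest genes, and genes not detected or with discordant probes. RPLP1, RPLP2, RPL5, RPL11, RPS6 and RPS3 were named too, as were up to 3 members each way of other lists. EIF3C was named in addition. The alternatives were an offset of 50, median scaling, loess, no background correction, the authors' values (floored at 16), no filter on detection, detection on both arrays, a detection p under 0.05, the mean over probes, the dimmest probe, other folds and centring on the median of detected genes. Centring combined with another scaling was chosen after seeing the data.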

Additional observations from a re-analysis of the deposited data

How the results depend on the processing

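Over the alternatives run the median ran from -0.07 to 0.26 for all ribosomal protein genes, from -0.09 to 0.25 for the large and from -0.02 to 0.32 for the small subunit, lowest under median scaling and highest with the authors' values centred on all detected genes (0.30 for the small subunit with median scaling so centred). Centring another scaling was chosen after seeing the data. The median over all detected genes was -0.32 under median scaling and -0.11 with the authors' values. The count past 0.32 moved most. It was 4 higher and 0 lower as reported, 2 higher and 5 lower under median scaling (where 49.5% of all detected genes were lower), 11 higher and 1 lower with the dimmest probe of each gene (all detected genes 12.1% and 15.8%), and 22 and 24 higher with centred median scaling and centred authors' values (12.5% and 13.5% of all detected genes). It was 1 higher at 1.5-fold and 0 at 2-fold. Of 392 values of the 28 named genes under the alternatives, 355 lay within 0.22 of the reported value, the pooled SD between probes of a gene, and 0 turned a called direction. Many of these values could not move, so the count does not measure robustness. Changing the detection filter left the value of each named gene as reported, and changing the probe did so for genes with 1 detected probe. Only 4 of the 28 genes had a called direction. The cause of these shifts was not tested. No paired analysis was possible because each group has 1 array. Signals of RPL37, EIF4E and EIF3C lie near the lowest detected signals (138 and 141), which limits their precision.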
